A study of Rattus norvegicus with 12 samples.

Results

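The probes described here are those for the rat miRNAs miR-3541 to miR-3596, whatever the letter or arm, and they were chosen by the number in the name alone. They were 64 of the 420 endogenous probes and of the 429 probes in all, and they covered 47 distinct numbers. Circulating miRNA was counted in plasma from 12 female Wistar rats, 1 sample per rat. The 6 pregnant rats were killed at E14.5, at 103 to 373 days of age, and the 6 control rats were non-pregnant and 110 to 269 days old. Pregnancy followed an overnight pairing in proestrus and was judged from a mucosal plug and sperm in the smear. The uterus was also examined after the blood had been taken. No genetic modification or drug is named for either group, and the pregnant rats were killed with CO2 followed by cervical dislocation. Blood was drawn from the heart after death, and the same collection was used for the controls. RNA came from 1.5 ml of plasma spun to remove cells and platelets. A count in such plasma is a level of RNA in the fluid, so release from a tissue, clearance and the number of source cells cannot be told apart.

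A microRNA is cut from one arm of a short RNA hairpin, and the suffixes 5p and 3p name the arm. Bases 2 to 8 of the mature strand, the seed, do most of the pairing with target messenger RNAs. Numbers are given to miRNAs roughly in the order in which they were registered, so the low numbers hold the widely conserved and abundant families and high ones such as these hold sequences found later by deep sequencing in rat. The function of most of the latter is not known. On the nCounter, each miRNA is ligated to a tag and hybridised to a barcoded reporter, and every barcode imaged adds 1 count. The smallest value in the table was 1.

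The endogenous probes summed to 6969 to 10176 counts per control rat and to 5163 to 30301 per pregnant rat. Probes for plant and worm miRNAs give the level at which a probe reads with no target added. For 4 of them no RNA was spiked in. These were the rice probe osa-miR442, the thale cress probe ath-miR159a and the worm probes cel-miR-254 and cel-miR-248, which averaged between 7.25 and 15.75 counts per rat, and their mean + 1 SD lay between 12.6 and 32.4. The rice probe osa-miR414, for which RNA was spiked in, read 6 to 44 counts, so it did not stand clear of the others. The blood and tissue markers varied widely. The red cell miRNA rno-miR-451 ran from 48 to 2529 counts, the liver miRNA rno-miR-122 from 67 to 5714 and the leukocyte miRNA rno-miR-150 from 48 to 1878.

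Of the 64 members, 52 had a mature sequence in RefSeq (rat assembly GRCr8). The 12 without an entry were miR-3545-3p, miR-3545-5p, miR-3555, miR-3563-3p, miR-3563-5p, miR-3567, miR-3568, miR-3577, miR-3581, miR-3586-3p, miR-3586-5p and miR-3593-5p. The 52 mature strands were 18 to 24 bases long and lay on 14 chromosomes, with 13 of them on the X chromosome and 31 within the bounds of a protein-coding gene. What many shared, and what their numbers do not show, was their position. For 22 of the 52, the mature strand lay opposite a mature miRNA annotated on the other DNA strand, with 16 to 22 complementary bases, and in 11 the complement ran over the whole member. The 11 pairs below are shown because they hold most of the strongly counted members, and capitals mark the complementary bases, each strand written 5′ to 3′.
rno-miR-3595: GUGGAUUUUCCUCUACGAU
rno-miR-376a-3p: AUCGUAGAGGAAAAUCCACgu
rno-miR-3578: GCGAAUAUAACACGGUCGAUCU
rno-miR-369-5p: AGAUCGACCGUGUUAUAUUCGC
rno-miR-3579: gCGCAUGUUCUAUGGUCAACCA
rno-miR-380-5p: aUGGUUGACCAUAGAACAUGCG
rno-miR-3592: AAGUGUUGUCCGUGAAUGAUU
rno-miR-382-3p: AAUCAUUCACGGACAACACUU
rno-miR-3596c: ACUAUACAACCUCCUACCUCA
rno-let-7e-5p: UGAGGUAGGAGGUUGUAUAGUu
rno-miR-3596b: AACUAUGCAACCUACUACCU
rno-let-7d-5p: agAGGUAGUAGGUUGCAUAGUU
rno-miR-3596d: CUAUACAAUCUACUACCUCA
rno-let-7f-5p: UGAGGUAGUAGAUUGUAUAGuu
rno-miR-3590-5p: UGCCCUUUUAACAUUGCACUG
rno-miR-130a-3p: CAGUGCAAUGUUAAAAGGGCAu
rno-miR-3590-3p: UAGCACAAUGUGAAAAGAGCuc
rno-miR-130a-5p: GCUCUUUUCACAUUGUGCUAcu
rno-miR-3571: UACACACUUCUUUACAUUCCAua
rno-miR-1-3p: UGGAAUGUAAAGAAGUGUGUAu
rno-miR-3589: gaGGAAACCAGCAAGUGUUGAC
rno-miR-505-3p: GUCAACACUUGCUGGUUUCC
These partners are among the well-known miRNAs. The let-7 family sets developmental timing and differentiation, miR-1 is a muscle miRNA, miR-130a is found in endothelium and blood, and miR-369, miR-376a, miR-380 and miR-382 belong to the large imprinted Dlk1-Dio3 cluster, which is active in placenta and brain.

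In that cluster, 6 members lay within 258 kb of chromosome 6, all on the minus strand and all opposite a plus-strand miRNA. They were miR-3544 (chr6:134321165-134321187), miR-3543 (chr6:134330451-134330473), miR-3579 (chr6:134546246-134546267), miR-3595 (chr6:134559421-134559439), miR-3592 (chr6:134569992-134570012) and miR-3578 (chr6:134579472-134579493). The let-7 antisense members were miR-3596b (chr17:16322275-16322294, minus strand), miR-3596c (chr1:67350243-67350263, minus strand, within Spaca6) and miR-3596d (chr17:16320508-16320527, minus strand). Both arms of miR-3590 lay opposite miR-130a on chromosome 3 (chr3:90229241-90229261 and chr3:90229282-90229303, plus strand). miR-3571 lay opposite miR-1 (chr18:2160340-2160362, plus strand, within Mib1) and miR-3589 opposite miR-505. The tables used here do not say whether a position within a gene is exonic or intronic.

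Only 2 of the 52 shared their seed with a rat miRNA outside the set. miR-3596d shared its own with let-7a-1-3p, let-7b-3p, let-7c-2-3p, let-7f-1-3p and miR-98-3p. miR-3573-5p (chrX:68299280-68299301, plus strand, within Efnb1) had the seed of miR-423-5p, shown in capitals.
rno-miR-3573-5p: uGAGGGGCagugauagaaagga

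Detection was read against the exogenous probes of the same rat. A count above the mean + 1 SD of the 4 unspiked probes in all 12 rats was reached by 12 of the 64 members (18.8%), against 26 of the 356 other endogenous probes (7.30%). These 12 were miR-3571, miR-3578, miR-3581, miR-3585-3p, miR-3589, miR-3590-3p, miR-3590-5p, miR-3592, miR-3593-5p, miR-3594-5p, miR-3595 and miR-3596c. Above the mean alone in all rats were 21 members (32.8%), against 16.6% of the others. Above the mean + 2 SD were 4 members (6.25%), miR-3590-5p, miR-3593-5p, miR-3594-5p and miR-3596c, against 16 of the others (4.49%), so the shares lay close together at that level. At the low end, 13 of the 64 members read below the mean of the exogenous probes in every rat, against 123 of the 356 others. Of these members, 3 (miR-3583-3p, miR-3585-5p and miR-3594-3p) stood at 1 in every rat (4.69% of members, against 3.09% of the others). The mean count of a member ran from 1 to 109 with a median of 13.5, against a median of 7.71 for the other endogenous probes. A count of the probe's own target and counts from other sources could not be separated with these probes.

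**Figure D1:**
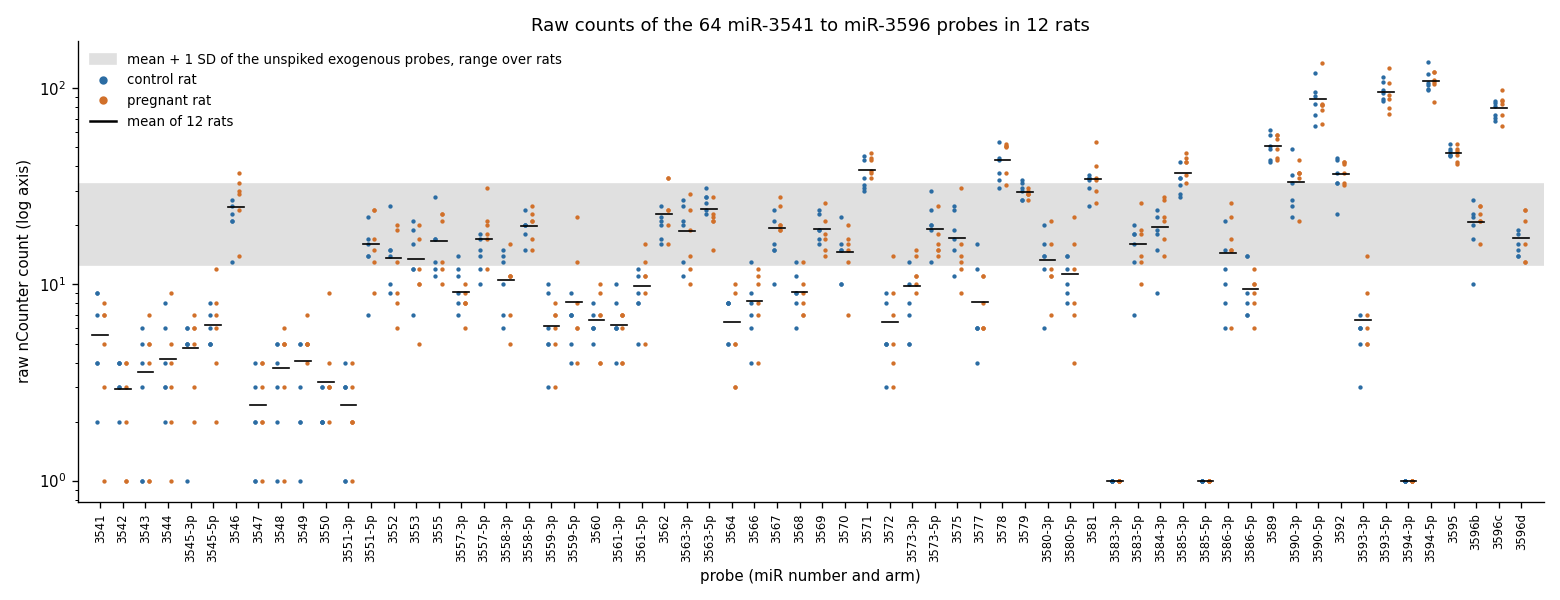
Raw nCounter count (log axis) of each of the 64 probes in the 6 control (blue) and 6 pregnant (orange) rats, in order of miR number, with a bar at the mean of 12 rats and a grey band for the range over rats of the mean + 1 SD of the unspiked exogenous probes. Most probes lie in or below the band, the 3 probes at 1 have no spread, and control and pregnant rats are interleaved in nearly every probe.

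The level rose with the miR number. The median of the mean counts was 4.08 over the 11 probes from miR-3541 to miR-3550, 11.96 from miR-3551 to miR-3560 and 14.7 from miR-3561 to miR-3570. It was 15.2 from miR-3571 to miR-3580, 19.7 from miR-3581 to miR-3590 and 36.7 over the 9 probes from miR-3592 to miR-3596d. Spearman's rho between number and mean count was 0.53 over the 64 probes, given as a description since all come from the same 12 samples and probes differ in base composition. Of the 12 members high in every rat, 0 had a number below that of miR-3571. Length and GC content of the 52 sequences ran weakly the other way, with rho of -0.19 and -0.18 against the mean count.

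The highest member was miR-3594-5p, from the 5p arm of a hairpin within Cep131 (chr10:105845867-105845887, minus strand). It read 109 ± 13.5 counts (SD, n = 12), with a lowest, median and highest of 98, 105 and 137 in control rats and 85, 109 and 121 in pregnant rats. The groups overlapped over most of their range, and no rat stood apart. Next was miR-3593-5p at 96.2 ± 15.2, with 86, 96.5 and 114 in control rats and 74, 90 and 127 in pregnant rats. The pregnant rats held both the lowest and the highest value.

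The antisense members of let-7 and miR-130a followed. miR-3590-5p read 87.8 ± 20.9, with 64, 87 and 120 in control rats and 66, 82 and 135 in pregnant rats. Its 1 high pregnant rat and 1 high control rat lay above all others, and the rest were alike in both groups. miR-3596c, opposite let-7e, read 79.5 ± 9.76, with 68, 77 and 86 in control rats and 64, 84.5 and 98 in pregnant rats. The pregnant rats again reached to both sides of the controls.

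miR-3589 read 42, 50 and 61 in control rats and 43, 52 and 58 in pregnant rats. miR-3595 read 45, 47 and 52 against 41, 47 and 52, and miR-3578 read 31, 40 and 53 against 32, 50.5 and 52. In each of these the range of 1 group lay within that of the other. miR-3571 ran from 30 to 45 in control and 35 to 47 in pregnant rats, miR-3585-3p from 28 to 42 and 33 to 47, miR-3592 from 23 to 44 and 32 to 42, miR-3581 from 25 to 36 and 26 to 53, and miR-3590-3p from 22 to 49 and 21 to 43. All of these overlapped. Closest to the limit were miR-3578 and miR-3581 with 34 counts and miR-3590-3p with 36 in control replicate 3, where the limit was 32.4. Just outside, above it in 11 rats, were miR-3579 (29.8 ± 2.26) and miR-3563-5p (24.2 ± 4.32).

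The antisense members were more often among the high ones. Of the 22, 8 were above the mean + 1 SD in all rats and their median mean count was 19.0, while 2 of the 30 other members with a sequence were, with a median of 9.04. The remaining 2 high members, miR-3581 and miR-3593-5p, had no sequence entry. These counts are a description and were not tested. Not every antisense member was high. Within the chromosome 6 stretch miR-3595 (47.0 ± 3.41), miR-3578 (42.9 ± 8.40), miR-3592 (36.7 ± 6.17) and miR-3579 (29.8 ± 2.26) read well over miR-3544 (4.17 ± 2.44) and miR-3543 (3.58 ± 2.15).

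The let-7 antisense members differed from each other as well. miR-3596c averaged 79.5, miR-3596b 20.8 ± 4.67 and miR-3596d 17.2 ± 3.98, although miR-3596c and miR-3596d differed at 2 of 20 aligned bases and miR-3596c and miR-3596b at 2 of 19. In every rat miR-3596c was the highest of these, since its lowest count of 64 lay above the highest count of the others, 27 and 24. Counts of different probes are compared here as read, since a probe's efficiency was not measured.

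For 17 of the 22 antisense members the codeset also had a probe named for the opposite miRNA, mostly without an arm, so which arm it reads is not known here. The member read higher than that probe in all 12 rats in 6 pairs and by mean in 8. The 6 were miR-3578, miR-3579, miR-3589, miR-3592, miR-3595 and miR-3596c. miR-3589 averaged 50.9 counts and the miR-505 probe 2.50 ± 1.73. miR-3596c averaged 79.5 and let-7e 8.67 ± 5.73, miR-3592 36.7 and miR-382 3.92 ± 2.68, and miR-3579 29.8 and miR-380 4.67 ± 3.11. In these the member was in the higher range of the table while the probe of the better-known miRNA averaged less than the unspiked exogenous probes, whose mean over all rats was 10.75.

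In other pairs the order of the means was turned. Among those given here the member still read higher in some rats, 3 for miR-3590-5p, 3 for miR-3571 and 1 for miR-3596b. The miR-130a probe averaged 146 ± 127 counts, from 32 to 506, and miR-3590-5p opposite it 87.8, from 64 to 135. The miR-1 probe averaged 69.1 ± 59.6, from 20 to 233, and miR-3571 38.3 ± 5.90, from 30 to 47. The let-7d probe averaged 87.8 ± 75.7, from 17 to 290, and miR-3596b 20.8, from 10 to 27. The highest rat read 15.8 times the lowest for miR-130a, 11.7 times for miR-1 and 17.1 times for let-7d, against 2.11, 1.57 and 2.70 times for the members on the other strand.

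**Figure D2:**
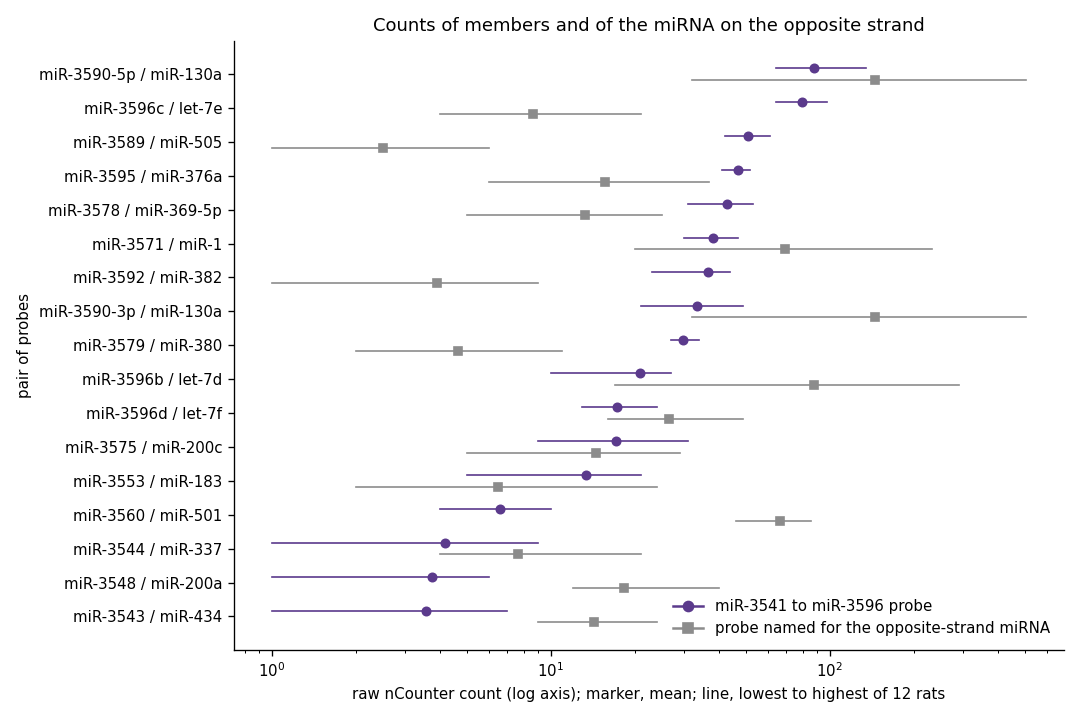
Raw counts (log axis) of 17 members (circles) and of the probe named for the miRNA on the opposite strand (squares), with a marker at the mean and a line from the lowest to the highest of 12 rats. The lines of miR-130a, miR-1 and let-7d are longer than those of the members opposite them, the lines of low members such as miR-3543 and miR-3544 are longer than those of their partners, and 6 members lie wholly above their partner probe in every rat, among them miR-3596c and miR-3589.

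Whether member and partner moved together over the 12 rats was tested for the 8 pairs in which both probes reached 10 counts in 6 rats or more. On log2 CPM with TMM scaling, rho ran from -0.65 for miR-3596b and let-7d to -0.13 for miR-3590-3p and miR-130a, and the smallest adjusted permutation p was 0.124. On log2 raw counts rho ran from -0.41 to 0.38, and the smallest adjusted permutation p was 0.912. No pair passed on either scale, and the negative sign of all 8 on the CPM scale was not kept on the raw scale. The scale is shared by both probes of a pair.

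The spread between rats was small. Summed over the 64 members, control rats gave 1454, 1163, 1313, 1148, 1111 and 1325 counts and pregnant rats 1380, 1366, 1142, 1059, 1503 and 1396, in the order of the replicate numbers. The highest was 1.42 times the lowest, and the groups overlapped. The other endogenous probes summed to between 3797 (pregnant replicate 2) and 28905 (pregnant replicate 6), a ratio of 7.61. Those same rats had member sums of 1366 and 1396, so that the members made up 26.5% of the endogenous counts in the former and 4.61% in the latter. Abundant probes differed widely between those rats. In pregnant replicates 2 and 6, miR-122 read 67 and 5397 counts, miR-451 48 and 1304, miR-150 48 and 1878 and miR-126 16 and 752. The median other probe read 7 counts in the former and 11.5 in the latter. Over all rats it read 5 to 11.5 counts and the median member 10 to 17.5, so for the typical probe the contrast was small.

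Counting error alone gives a variance equal to the mean, and with 12 rats a ratio of variance to mean between 0.347 and 1.99 lies within its 95% range. Among members with a mean of at least 20 counts, 13 of 17 were within or below that range, with a median ratio of 1.20. Among the other endogenous probes with such a mean, 13 of 70 were, with a median of 24.7. The median coefficient of variation was 16.8% in the former and 84.4% in the latter, and the highest count was 1.72 times the lowest in the former and 9.79 times in the latter, both as medians. Over all probes that passed the count filter the gap was smaller, with a median ratio of 1.52 in the members and 2.73 in the others and a median coefficient of variation of 26.2% and 42.3%. Over all probes these were 1.17 and 1.50, and 30.1% and 48.4%. The probe sets were not tested against each other, since probes of 1 sample are not replicates. They were not matched for level either, with mean counts of up to 109 in the members and 1803 in the others. The unspiked exogenous probes, with means of 3.58 to 19.5, had ratios of 0.707 to 2.95.

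The steadiest of the tested members were miR-3595 (coefficient of variation 7.26%, ratio 0.248) and miR-3579 (7.60%, ratio 0.172), with 41 to 52 and 27 to 34 counts over all rats. Both lay below the 95% range, and both are antisense members of the chromosome 6 cluster. The largest ratio was that of miR-3590-5p at 4.99, and without its highest rat, pregnant replicate 5, the remaining 11 rats lay between 64 and 120 counts. The largest coefficient of variation, 44.4%, was that of miR-3586-3p, which read 6 to 26 counts. Of the 38 endogenous probes above the mean + 1 SD in every rat, 14 had a ratio within or below the counting range, and 9 of these 14 were members.

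**Figure D3:**
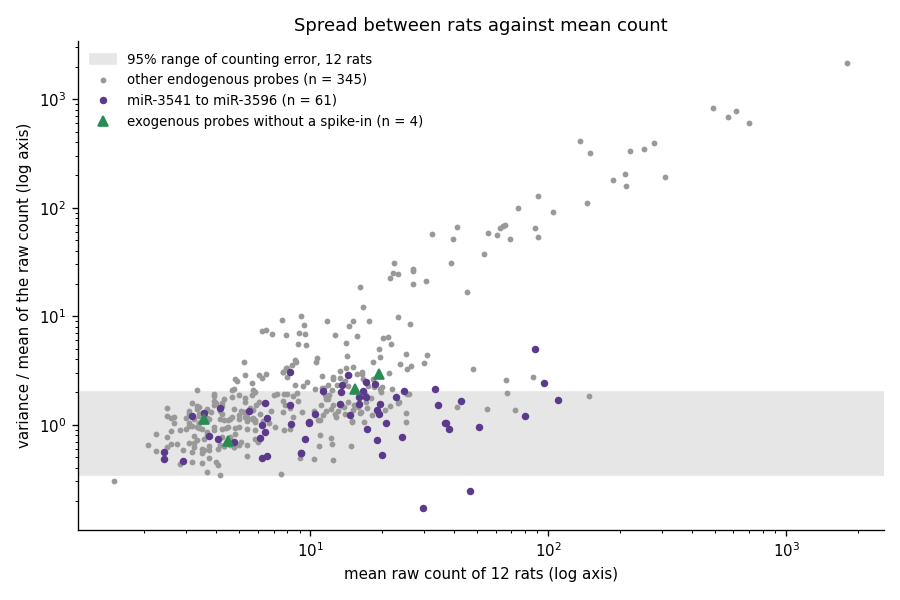
Variance over mean of the raw count against the mean of 12 rats (both axes log) for the 61 members with any spread (purple), 345 other endogenous probes (grey) and the 4 unspiked exogenous probes (triangles), with the 95% range of counting error from 0.347 to 1.99 in grey. Above 20 counts 13 of 17 members lie in or below the band, the highest being miR-3590-5p at 4.99, and 13 of 70 other probes do.

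How the spread looked after scaling depended on the scaling. Over the 38 members that reached 10 counts in 6 rats or more, the median coefficient of variation was 26.2% on raw counts and 25.1% on CPM with TMM scaling. It was 43.8% after division by the total RNA normalisers, the geometric mean of the 38 probes above the mean + 1 SD in every rat, although 12 of those 38 were members. The scale factors so obtained ran from 0.459 in pregnant replicate 2 to 2.003 in pregnant replicate 6.

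Both arms were on the codeset for 15 of the miRNAs, and the arms often differed. The 3 hairpins below are shown because 1 arm stood at 1 in every rat while the other was counted above it, with the seed in capitals.
rno-miR-3594-5p: cCCAGGGCagagcagugugaa
rno-miR-3594-3p: cACACCGCcucugcccgcuagu
rno-miR-3585-3p: uGAACGGCccuuguuguga
rno-miR-3585-5p: uUCACAAGaaggugucuuucau
rno-miR-3583-5p: aGCAUGAAgaguucagaucacguu
rno-miR-3583-3p: cCUGACUUcucucuucaugcag
miR-3594-5p averaged 109 counts, miR-3585-3p 37.1 ± 6.17 and miR-3583-5p 16.0 ± 5.01, each with its other arm at 1. The first and second were above the mean + 1 SD of the exogenous probes in all 12 rats and miR-3583-5p in 3. miR-3585 lies on the X chromosome (chrX:151706741-151706759 for the 3p arm, minus strand) and miR-3583 within Dnajc8 (chr5:150036006-150036029 for the 5p arm, plus strand). A further 11 endogenous probes outside the set also stood at 1 in all rats. A probe fixed at the smallest value carries no ratio, so no fold between arms is given for these miRNAs.

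Of the other 12 pairs, miR-3593 had 96.2 counts for the 5p arm and 6.58 ± 2.75 for the 3p arm, and miR-3551 had 16.0 ± 5.34 for 5p and 2.42 ± 1.08 for 3p. Both 3p arms were above the mean + 1 SD of the exogenous probes in 0 rats, so no fold is given for them either. miR-3590 had 87.8 for 5p and 33.5 ± 8.42 for 3p, a ratio of 2.62. The 5p arm read higher in all 12 rats in each of these. In the remaining 9 pairs neither arm was above the mean + 1 SD in every rat, the mean counts lay between 4.75 and 24.2, and in miR-3580 and miR-3586 the 3p arm was higher by mean but not in every rat.

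**Figure D4:**
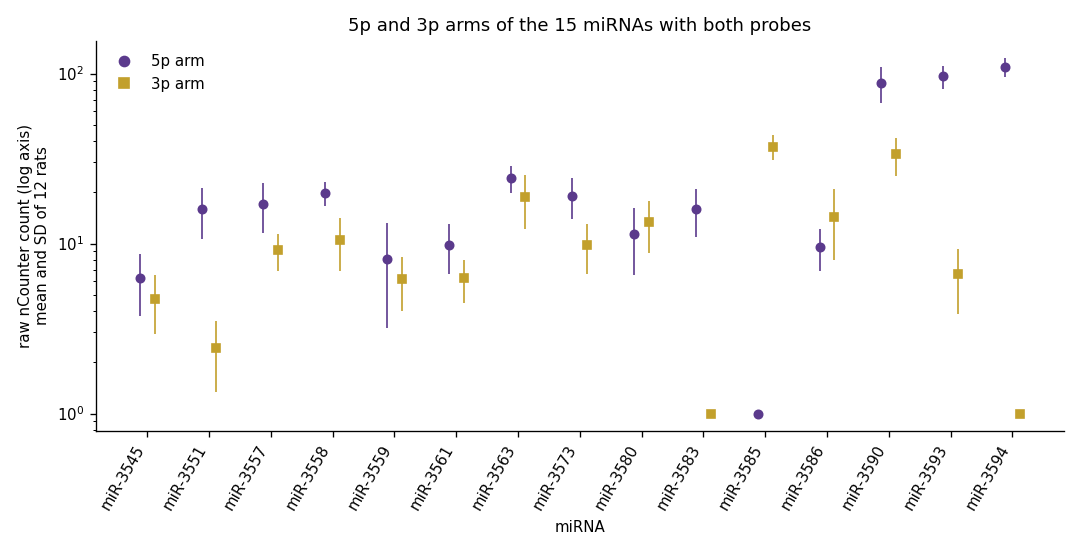
Mean raw count (log axis) of the 5p (circles) and 3p (squares) probes of the 15 miRNAs with both arms, bars showing the SD over 12 rats. miR-3583, miR-3585 and miR-3594 have 1 arm at 1 in every rat, and miR-3590, miR-3593 and miR-3594 have the highest 5p arms.

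Agreement of the arms over the rats could be tested in the 5 pairs in which both passed this filter. On log2 CPM, rho was 0.62 for miR-3558, 0.34 for miR-3563, 0.28 for miR-3590, -0.06 for miR-3573 and -0.13 for miR-3580. Their median of 0.28 stood beside a median of 0.20 over the 698 pairs of tested members that are not partners. After adjustment over the 5 pairs no rho passed (for miR-3558, adjusted permutation p = 0.185). Pearson's r for miR-3558 was 0.74 (adjusted permutation p = 0.0312), and r for the other 4 lay between -0.16 and 0.31, with the smallest adjusted permutation p at 0.672.

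The relation in miR-3558 rested on few rats. Without pregnant replicates 5 and 6, which were farthest from the median of the 5p arm, r was 0.49. On log2 raw counts r was 0.44 (adjusted permutation p = 0.261) and 0 of the 5 pairs passed. The arms of miR-3558 read 15 to 25 and 5 to 16 counts, so counting error was a large part of both.

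The group comparison asked which plasma miRNAs differ in level between pregnant and non-pregnant rats. Of the 64 members, 38 passed the count filter and were tested in edgeR among 187 endogenous probes. At an adjusted p under 0.05, 0 members were called, and 0 of the 187 probes were (0%). Without adjustment, 0 of 38 members had p under 0.05, against 11 of 187 over all probes (5.88%). With no scaling of the counts, 0 of 38 members had an unadjusted p under 0.05, against 7 of 187 (3.74%). DESeq2, limma-voom and the exact permutation test also called 0 members, with or without adjustment. Over all 187 probes they gave 8 (4.28%), 6 (3.21%) and 6 (3.21%) without adjustment. Welch's t-test on counts divided by the total RNA normalisers called 0 members too, against 1 of 187 (0.535%) without adjustment. It shares the test of the study but not its processing of the counts.

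The log2 fold changes of the 38, pregnant over control, ran from -0.38 to 0.45, with standard errors of 0.17 to 0.37. The median was 0.02, with 20 members higher and 18 lower, and over all 187 probes it was 0.05. With library size alone as the scale the median was -0.26 and 34 of 38 were lower, but all 187 probes then had a median of -0.33. The direction over the members thus turned with the scaling, and so it did over all probes.

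**Figure D5:**
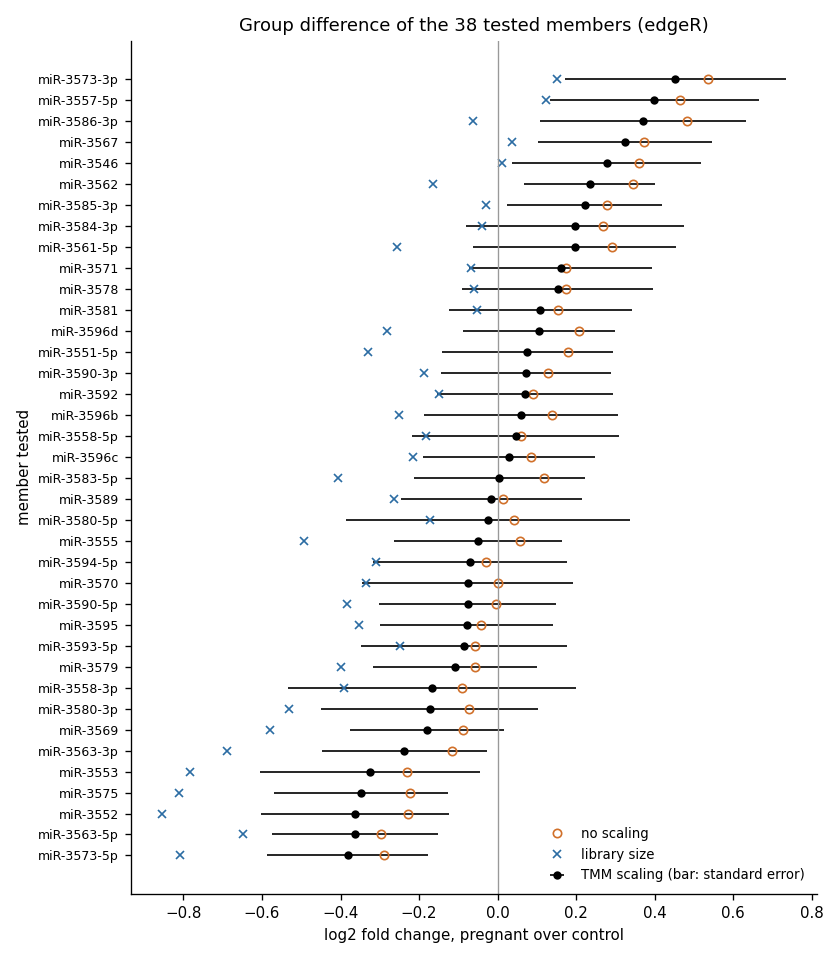
Log2 fold change, pregnant over control, of the 38 tested members with edgeR and TMM scaling (black, bars showing the standard error), with no scaling (open circles) and with library size as the scale (crosses). With TMM the values lie between -0.38 and 0.45 on both sides of 0, and with library size 34 of 38 lie below 0.

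The member with the smallest p in edgeR was miR-3573-5p. It read 13, 20 and 30 counts (lowest, median and highest) in control rats and 14, 15.5 and 25 in pregnant rats. The control rats held both the lowest and the highest count. Its log2 fold change was -0.38 (SE 0.20, edgeR adjusted p = 0.732), and all 6 pregnant rats were below the control mean in CPM.

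miR-3563-5p read 23, 27 and 31 in control rats and 15, 21.5 and 28 in pregnant rats. Most pregnant rats were at or below the lowest control, but 1 was level with the higher controls. Its log2 fold change was -0.36 (SE 0.21, edgeR adjusted p = 0.732). 

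The other arm of miR-3573 lay in the opposite direction to miR-3573-5p. miR-3573-3p read 5, 7.5 and 13 in control rats and 9, 11 and 15 in pregnant rats, with a log2 fold change of 0.45 (SE 0.28, edgeR adjusted p = 0.732). The groups overlapped between 9 and 13 counts. miR-3575, opposite miR-200c, had -0.35 (SE 0.22) with 11 to 25 counts in control and 9 to 31 in pregnant rats, and miR-3552, within the serotonin receptor gene Htr2c, had -0.36 (SE 0.24) with 9 to 25 and 6 to 20. In both, the pregnant rats overlapped the controls and no test passed (edgeR adjusted p = 0.732 for each).

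Among the 12 members that were high in every rat the log2 fold change ran from -0.09 for miR-3593-5p to 0.22 for miR-3585-3p. Their sizes are not compared with those of the 5 members above, which were picked by the smallest p. miR-3569, within Kmt2b, read 16 to 24 counts in control and 14 to 26 in pregnant rats, with -0.18 (SE 0.20). miR-3580-3p read 6 to 20 and 7 to 21, with -0.17 (SE 0.28). Neither group stood apart in either probe, and their adjusted p in edgeR was 0.844 and 0.944.

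The 26 members outside the filter were tested only in the edgeR fit with no filter on low counts. There 0 of 64 members were called and 0 had an unadjusted p under 0.05, against 20 of 420 endogenous probes (4.76%). Leaving aside the 3 at 1 in every rat, the other 23 had means of 2.42 to 9.50 counts. Of these 23, 22 had a ratio of variance to mean within the range of counting error (95.7%). Of the other endogenous probes outside the filter and not at 1 throughout, 158 of 196 did (80.6%). The exception among the members was miR-3559-5p, at 4 to 9 counts in control rats and 4 to 22 in pregnant rats.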

How the data were processed

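The authors deposited raw nCounter counts per probe of the Rat v1.5 miRNA codeset, with no background correction or normalisation applied to this table. Each deposited count is the number of barcodes imaged. Groups and ages came from the sample labels. No pair of the 12 rats had identical counts (0 pairs), so each rat was 1 replicate, and precision is limited by counting error at counts mostly under 20.

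Members were the endogenous probes miR-3541 to miR-3596. The members and lists were chosen with earlier results of these data known. The negative control probes were not used here, so background was the mean, mean + 1 SD or mean + 2 SD of the 4 unspiked exogenous probes in each rat. Groups were compared with edgeR's quasi-likelihood test (TMM scaling, probes reaching 10 counts in 6 rats or more, Benjamini-Hochberg adjustment over 187 probes), fitted over all endogenous probes. Each standard error is the fold change over the root of F. Correlations over rats used log2 CPM with a prior count of 2 and two-sided permutation tests of 100000 resamples. The two-sided exact permutation test took all 924 choices of 6 rats. Alternatives were other scalings, filters, tests, background levels, age class as a covariate and leaving out each rat. The comparison with no scaling and the relation to opposite-strand probes were added after the data had been seen. Mature sequences and positions came from RefSeq (GRCr8), and a member was called antisense with at least 15 complementary bases against a mature miRNA on the other strand.

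The probes named with values were those above mean + 1 SD in every rat, the 5 with the smallest p, both arms of each tested pair, miR-3563-5p, miR-3573-5p, miR-3569 and miR-3580-3p, the extremes of the coefficient of variation, and those sharing a seed or a complement with another probe. miR-3559-5p, miR-3579 as the second steadiest probe, and the uneven or fixed arms were named after their values were seen. Counting models ran in edgeR 4.0.16, DESeq2 1.42.0 and limma 3.58.1 under R 4.3.3. Other steps used scipy 1.17.1, pandas 2.3.3 and numpy 2.4.6 under Python 3.11.15. The tests were run on simulated data with known answers as well.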

Additional observations from a re-analysis of the deposited data

Results flagged for a closer look

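In 4 of 52 groups of 6 rats, 1 rat's count lay far from the nearest of the others, by more than Dixon's 95% limit for 6 values. Chance gives about 1 such group in 20. All 4 were in pregnant rats. miR-3590-5p had 135 counts in pregnant replicate 5, against 83 in the next highest rat, a gap of 0.754 of the range. miR-3575 had 31 in the same rat, against 16, a gap of 0.682 of the range. miR-3573-5p had 25 in pregnant replicate 6, against 18, and miR-3590-3p had 21 in pregnant replicate 4, against 35 in the next lowest rat, and both gaps were 0.636 of the range. Pregnant replicates 5 and 6 had the largest endogenous sums, 24010 and 30301 counts, and the part of this in the high counts was not tested.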

How the results depend on the processing

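No member was called at an adjusted p under 0.05 in the main setting or in any of the 25 others. Unadjusted, 1 member (miR-3552, 2.63%) passed with upper quartile scaling, against 14 of 187 endogenous probes (7.49%). When 1 rat was left out, 0 to 2 members passed. Without pregnant replicate 1 these were miR-3553 and miR-3563-5p (5.41%, against 8.15% of all probes tested). Without pregnant replicate 5 they were miR-3567 and miR-3575 (5.41%, against 4.4%). Only miR-3573-5p passed without control replicate 3 (2.7%, against 5.41%) or without pregnant replicate 3 (2.7%, against 5.91%). The median log2 fold change of members moved from 0.02 to -0.26 with library size alone and lay between -0.10 and 0.09 when 1 rat was left out. With the replicate number as a block, 0 members were called and the median was 0.01. Same-numbered rats did not deviate together (correlations of -0.341 to 0.274), so the numbers were not taken as pairs. The 5 named fold changes kept their sign under every alternative that gave a value for them, but their size moved. Without control replicate 3, miR-3552 went from -0.36 to -0.18, and without pregnant replicate 2, miR-3573-3p went from 0.45 to 0.27. With library size alone the latter was 0.15 and the other 4 lay between -0.86 and -0.65.

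Members above background in every rat numbered 12, and 21 with the mean as the level and 4 with the mean + 2 SD. When 6 rats were enough there were 23 (35.9%, against 19.7% of the other endogenous probes). Leaving out 1 rat gave 12 to 14. The 5 exogenous probes or the housekeeping probes as background gave 12, and the highest of the 4 probes gave 9 (14.1%, against 6.46%). The median rho of the arms was -0.0648 after background subtraction and 0.16 to 0.37 when 1 rat was left out. The pairs whose r passed numbered 1, and 0 on raw counts or after background subtraction. On deviations from the group means miR-3558 passed again (r = 0.74, adjusted permutation p = 0.0295). With at least 20 counts in both arms (2 pairs) 0 passed, but miR-3558 could not enter there, since its 3p arm read at most 16. With 1 rat left out, 0 to 2 pairs passed: 0 without control replicate 1 and without pregnant replicates 2, 3 or 5, and 2 without control replicate 6. The median coefficient of variation was 43.8% with total RNA normalisers and 25.2 to 26.6% when 1 rat was left out. Where not stated above, the cause was not tested. Counts under 20 limit every probe outside the 17 members above that mean.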
